A study of Homo sapiens with 8 samples.

Results

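Human embryonic stem cells of the H1 line that had received doxycycline were compared between day 7 and day 5. All 4 doxycycline libraries of the series were used, out of 8 libraries in all, chosen because their titles name doxycycline; 2 carry the hairpin shEXOSC3, which targets the RNA exosome subunit EXOSC3, and 2 carry the non-silencing hairpin shNS. The 4 groups are shEXOSC3 with doxycycline at day 5, the same at day 7, shNS with doxycycline at day 5, and the same at day 7. The hairpin is induced by doxycycline, and every culture grew without feeder cells on Matrigel at low oxygen with basic fibroblast growth factor and puromycin. The other 4 libraries, untreated cells of both lines on both days, served as the background for the same comparison. Each group is 1 library, and the labels do not say whether a line is 1 clone or a pool.

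The RNA exosome is a ring of subunits with attached nucleases that degrades RNA from its 3' end. In the nucleus it removes antisense and intergenic transcripts, trims the precursors of small nucleolar RNAs (snoRNAs) and matures ribosomal RNA, and in the cytoplasm it degrades short-lived mRNAs. EXOSC3 is a cap subunit of the ring that binds RNA. Embryonic stem cells are kept pluripotent by factors such as OCT4, SOX2 and NANOG, and p53 targets respond in them to DNA damage and to disturbed ribosome assembly.

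Levels are FPKM (fragments counted on a transcript, normalised to its length and to the mapped fragments of the library), summed over the transcripts of a gene and scaled between libraries. A day difference is the value of log2(FPKM + 1) at day 7 minus that at day 5, a scale on which differences of low genes are understated. With 1 library per group there is no replicate check, so a size rule was used: a gene was counted at a day difference of at least 1 in size. The progression rule asked for a day difference of at least 1 in shEXOSC3 and also a shEXOSC3 day difference that exceeded that of shNS by at least 1 in the same direction. The tests used set the 4 day differences (each line with and without doxycycline) against each other.

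The libraries of the 2 days differed in composition. The 3 most abundant transcripts held 23.8% to 27.6% of all FPKM in the day 5 libraries and 6.21% to 7.16% in the day 7 libraries, and RMRP, the RNA of RNase MRP, was the top transcript in every day 5 library. Day differences followed the GC content of the transcripts: in shEXOSC3 with doxycycline over 5 equal groups of genes by GC content the median was 0.44 in the lowest and -0.86 in the highest, and in shNS 0.39 and -0.78. The shEXOSC3 day difference minus that of shNS, with doxycycline, followed GC content less, with medians of 0.04 in the lowest group and -0.08 in the highest. Day and library composition cannot be told apart, and in bulk RNA neither can fewer cells of a type and less RNA per cell. Depth is not given, and the smallest steps between low values gave a day 7 depth of 1.09 times that of day 5 in shEXOSC3 (22.5% of low values at the commonest ratio). In shNS the commonest ratio of steps, 1.90, held 14.7% of low values and the next, 0.95, held 11.7%, so the relative depth of its libraries was not settled. A difference between the lines in low genes cannot be told apart from a difference in depth.

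**Figure D1:**
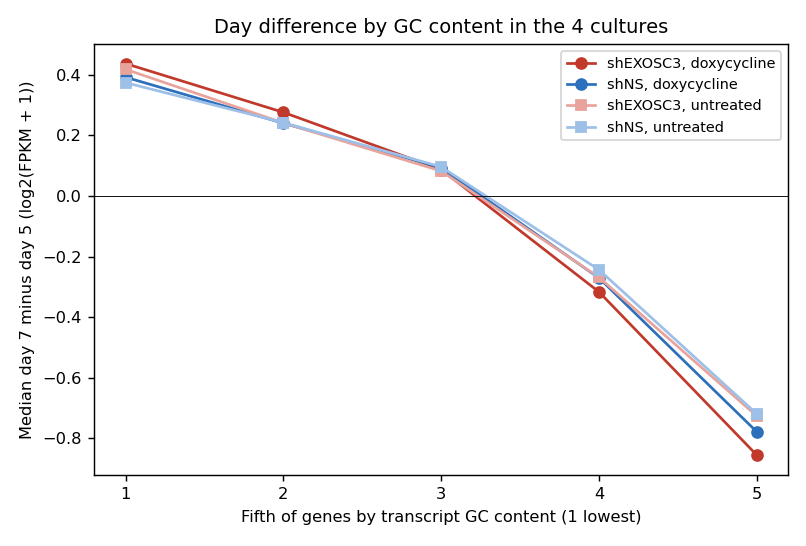
Median day difference (log2(FPKM + 1), vertical axis) over 5 equal groups of genes ordered by transcript GC content (horizontal axis, lowest on the left), for the 4 cultures. All 4 lines descend together, from 0.37 to 0.44 in the lowest group to between -0.72 and -0.86 in the highest.

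EXOSC3 itself, at chr9:37779711-37785089 (hg19), stood at 10.8 FPKM at day 5 and 12.8 at day 7 in shEXOSC3 with doxycycline. In shNS with doxycycline it stood at 26.5 and 28.9, and in the untreated libraries at 23.9, 26.2, 26.3 and 32.0. Both shEXOSC3 doxycycline libraries were below all 6 others, and the level did not fall further from day 5 to day 7. The day difference was 0.23 in shEXOSC3 and 0.12 in shNS, a difference of 0.11. Of the 14 exosome subunits and close partners on the list, none (0) passed the progression rule. Over all genes 0.256% passed it in the higher direction and 0.176% in the lower, so 0 says little of so short a list. The shEXOSC3 minus shNS difference was above 0 in 9 of the 14 with doxycycline (median 0.08, largest 0.39). Without doxycycline it was above 0 in 2 of the 14 (median -0.10). The lowest differences were those of MPHOSPH6, a factor that links the exosome to ribosomal RNA processing (27.1 to 29.8 FPKM in shEXOSC3, 30.2 to 45.9 in shNS), and of EXOSC7, a ring subunit (59.0 to 58.0 against 71.3 to 87.2).

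Most of the difference between the days was shared by both lines. At the size rule 1038 of 12496 long genes were higher at day 7 in shEXOSC3 with doxycycline (8.31%) and 1510 were lower (12.1%). In shNS with doxycycline the counts were 1079 (8.63%) and 1451 (11.6%). The untreated lines gave 1184 (9.48%) and 1424 (11.4%) for shEXOSC3, and 968 (7.75%) and 1270 (10.2%) for shNS. In both doxycycline lines together 760 genes were higher (6.08%) and 1153 lower (9.23%), and 3 genes (0.024%) passed in opposite directions. Across genes, which are not independent replicates and share the same libraries, the day differences of both doxycycline lines had a Pearson correlation of 0.926, and those of the untreated lines 0.942. limma with Benjamini-Hochberg adjustment, which set the mean of the 4 day differences against their spread, called 4886 genes higher at day 7 (39.1%) and 4847 lower (38.8%); the 4 cultures are conditions and not replicates.

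The genes with the largest shared increase were DYNLRB1, a dynein light chain, RPS27, a ribosomal protein, SERF2-C15ORF63, FABP5, a fatty acid binding protein, and UQCRBP1. DYNLRB1 stood at 0.033 and 0.015 FPKM at day 5 (shEXOSC3 and shNS) and at 107 and 92.0 at day 7. RPS27 stood at 2.90 and 1.88 at day 5 and at 220 and 167 at day 7. Such steps from near 0 also occurred in the untreated lines, where DYNLRB1 reached 107 and 112, and RPS27 has 30 named pseudogenes, UQCRBP1 is itself a pseudogene and SERF2-C15ORF63 is a read-through entry, so their reads can be divided between copies. The largest shared decreases were those of H3C13, H3C12 and H3C7, which encode replication-dependent histone H3, of PTTG2 and of PCNA-AS1. H3C7 stood at 786 FPKM in shEXOSC3 and 1031 in shNS at day 5, and at 33.8 and 46.2 at day 7. PCNA-AS1 was listed at 0 in both day 7 libraries, after 43.2 and 30.0 at day 5.

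Most replication-dependent histone genes and sterol genes were lower at day 7. Of 61 measured histone genes, 58 fell with the day by the limma test and 1 rose, where 38.8% of all genes fell; the median day difference was -1.58 in shEXOSC3 and -1.75 in shNS. H4C6, for example, stood at 2307 and 2806 FPKM at day 5 and at 545 and 557 at day 7. Histone mRNAs of this kind lack a poly(A) tail and are made in S phase. Of 33 genes of cholesterol and fatty acid synthesis, 31 fell and 0 rose (39.1% of all genes rose), with medians of -1.04 and -0.88. DHCR7, the last enzyme of cholesterol synthesis, went from 40.3 to 6.77 FPKM in shEXOSC3 and from 39.3 to 7.47 in shNS. INSIG1, which retains the sterol sensor in the endoplasmic reticulum, went from 20.6 to 4.26 and from 24.6 to 4.23. Both groups therefore moved with the day in the same direction under either hairpin. The shEXOSC3 minus shNS difference of the histone genes was above 0 in 48 of 61 with doxycycline (median 0.16). Without it 7 of 61 lay above 0 (median -0.28), and with the untreated difference subtracted the median was 0.43. In 30 of the 61 the shNS doxycycline culture had the lowest of the 4 day differences (25.9% of all genes). The shEXOSC3 doxycycline culture had the highest in 16 (26.4% of all genes). For the sterol genes the median shEXOSC3 minus shNS difference was 0.07.

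**Figure D2:**
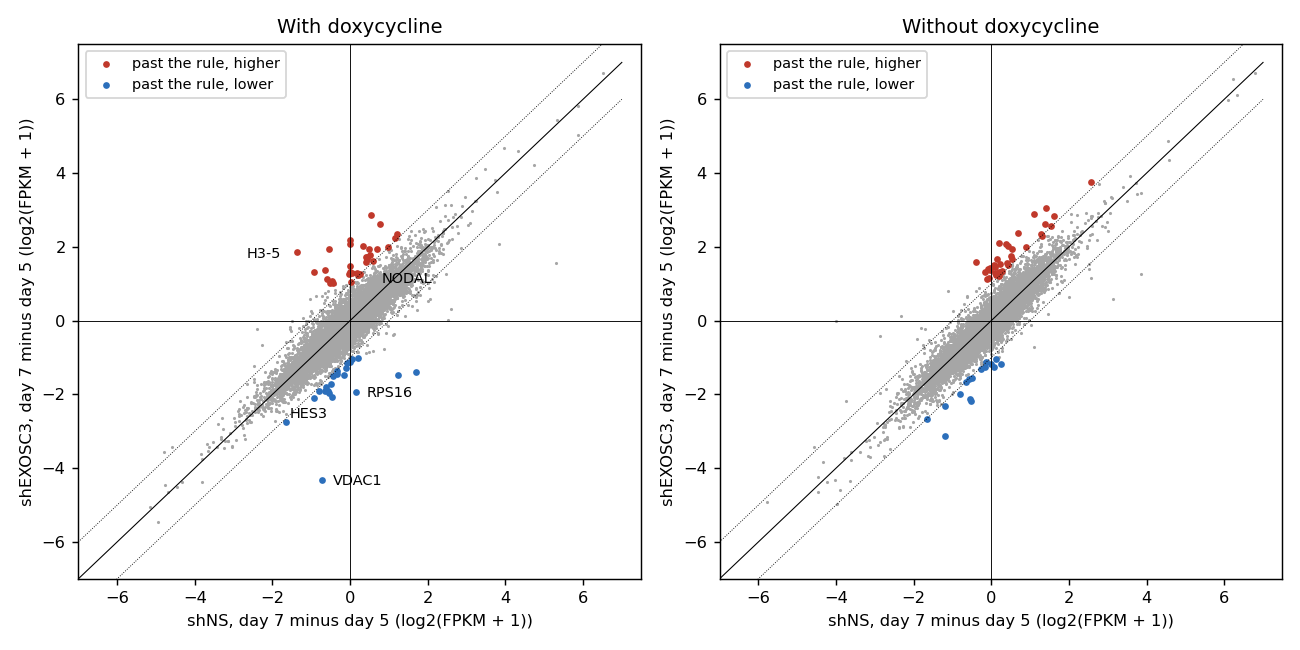
Day difference (log2(FPKM + 1)) of 12496 long genes in shNS (horizontal axis) and shEXOSC3 (vertical axis), with doxycycline on the left and without it on the right. Solid lines mark equal differences, dotted lines a gap of 1, and coloured points the genes past the progression rule, 32 higher and 22 lower with doxycycline and 35 and 16 without it.

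Few genes separated the lines. The shEXOSC3 minus shNS difference alone reached 1 in 68 genes (0.544%) and -1 in 56 (0.448%) with doxycycline, and in 57 (0.456%) and 29 (0.232%) without it. With doxycycline 32 genes passed the progression rule in the higher direction (0.256%) and 22 in the lower (0.176%). In the untreated cultures, which do not carry the knockdown, the same rule was passed by 35 (0.28%) and 16 (0.128%), and with the lines exchanged, by 24 (0.192%) and 20 (0.16%). The count past the rule was thus below that of the untreated cultures in the higher direction and above it in the lower. Of the 32 genes, 7 also passed without doxycycline and 13 kept a difference of at least 1 after the untreated difference was subtracted; of the 22 genes, 2 and 16 did. In 21 of the 32, the shEXOSC3 doxycycline culture had the highest of the 4 day differences, and in 26 the shNS doxycycline culture had the lowest, so many passed through shNS as well. Of the 32 genes 5, and of the 22 genes 6, lay at least 1 beyond all 3 other cultures, out of 6 (0.048%) and 11 (0.088%) such genes in all; for shNS there were 7 (0.056%) and 9 (0.072%). Among the genes just inside the rule were DGKA at 1.08 and PAXX at -1.09, and just outside SYTL2 at 0.98 and SHKBP1 at -0.99.

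limma was also used to set the shEXOSC3 doxycycline day difference against the other 3, with the spread taken from those 3. It called 1 gene higher (0.008%), H3-5, and 2 lower (0.016%), TNNT2 and DIAPH3-AS1; at an unadjusted p under 0.05 there were 1136 genes (9.09%), 500 higher (4.0%) and 636 lower (5.09%). H3-5, which encodes the histone variant H3.5 and lies at chr12:31944119-31945175 (hg19), stood at 25.02 FPKM at day 5 and 93.0 at day 7 in shEXOSC3 with doxycycline. In shNS with doxycycline it stood at 29.8 and 11.01, and in the untreated lines at 22.5 and 14.1 and at 29.1 and 15.6. It was higher at day 7 in 1 culture and lower in the other 3, and its shEXOSC3 minus shNS difference was 3.21 (limma against the other 3: 2.81, SE 0.24, adjusted p 0.00464). H3-5 is nearly identical in sequence to H3-3B, which gives H3.3; H3-3B stood at 152 and 195 FPKM in shEXOSC3 and at 182 and 217 in shNS. The other H3.3 gene, H3-3A, was listed near 0 at day 5 in both doxycycline libraries and at 3.24 in shEXOSC3 and 13.3 in shNS at day 7. How reads were divided among these copies was not tested.

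TNNT2, cardiac troponin T, went from 3.86 to 1.84 FPKM in shEXOSC3 with doxycycline and from 3.12 to 6.61 in shNS. In the untreated lines it went from 3.83 to 7.08 and from 3.51 to 7.41. It was thus lower at day 7 in 1 culture and higher in the other 3 (limma against the other 3: -1.62, SE 0.19, adjusted p 0.0397). DIAPH3-AS1, an antisense RNA, went from 4.68 to 1.03 in shEXOSC3 and from 0.21 to 1.85 in shNS (limma: -2.35, SE 0.29, adjusted p 0.0398). Its untreated values lay between 0.15 and 0.99, so the library that stands apart is shEXOSC3 with doxycycline at day 5. These calls depended on the settings: with the transcript of highest mean in place of the sum none (0) was made (adjusted p 0.222 for H3-5 and 0.704 for TNNT2, DIAPH3-AS1 not being tested), and without the untreated shNS culture none (0) either (adjusted p 0.33, 0.493 and 0.33). Without the untreated shEXOSC3 culture many more genes were called. Each such leave-out takes 1 culture from the 3 that give the spread, so its number of calls cannot be relied on.

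Among the other genes past the rule in the higher direction was NODAL, the signal that keeps these cells pluripotent and, at higher dose, induces mesendoderm, at chr10:72191692-72201465 (hg19). It stood at 1.92 FPKM at day 5 and 8.56 at day 7 in shEXOSC3 with doxycycline, and at 1.60 and 2.50 in shNS. In the untreated lines it went from 1.19 to 4.94 and from 1.21 to 3.85. All 4 cultures were higher at day 7 (limma shared day difference 1.18, SE 0.17, adjusted p 0.000125); the largest increase was in shEXOSC3 with doxycycline and the smallest in shNS with doxycycline. Its shEXOSC3 minus shNS difference was 1.28, and 0.98 with the untreated difference of 0.30 taken off. LPAR6, a lysophosphatidic acid receptor, went from 2.10 to 9.30 against 1.75 to 2.66, and from 1.64 to 5.53 and 1.62 to 3.035 without doxycycline.

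Several other genes past the rule were set by 1 library. PLEKHB2, a membrane protein of recycling endosomes, stood at 22.2 FPKM at day 5 in shNS with doxycycline, while the other 3 day 5 libraries lay between 5.31 and 9.53 and all day 7 libraries between 22.1 and 25.6. GPATCH8 stood at 3.63 at day 7 in shNS with doxycycline and between 15.7 and 17.6 in the other day 7 libraries. For both it was a shNS library that stood apart. CCDC169-SOHLH2 and ANKRD34C differed between the lines as much without doxycycline, with differences of 1.84 and 1.54 with it and 1.89 and 2.00 without. DEFB131B was listed at 0 in both shNS doxycycline libraries, so no fold is given. The uncharacterized LOC101930071 went from 0.82 to 5.96 against 4.53 to 2.83, and LOC101927915 from 0.97 to 13.4 against 0.82 to 1.65. In the untreated lines LOC101930071 went from 4.42 to 5.185 and from 5.56 to 2.66, so its lowest library was shEXOSC3 with doxycycline at day 5. LOC101927915 went from 0.90 to 8.355 and from 1.21 to 4.41 there. Their shEXOSC3 minus shNS differences were 2.47 and 2.33 with doxycycline and 1.03 and 1.00 without it.

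In the lower direction the first gene by size was VDAC1, the main channel of the outer mitochondrial membrane, with a difference of -3.60. It stood at 46.9 and 1.40 FPKM in shEXOSC3 and at 55.6 and 33.3 in shNS. In the untreated lines it went from 91.2 to 7.51 and from 57.5 to 1.46, so shNS with doxycycline at day 7 was the library that stood apart; VDAC1 has 13 named pseudogenes. RPS16, a small-subunit ribosomal protein with 10 named pseudogenes, stood at 813 FPKM at day 5 in shEXOSC3 with doxycycline and at 213 at day 7, against 191 and 214 in shNS. Its untreated levels were 354 and 235, and 316 and 248. The high value was that of the day 5 library, and day 7 was alike in both lines. MRPL12, a mitochondrial ribosomal protein, showed the same form (54.0 and 15.8 FPKM against 26.2 and 18.4), and its limma value against the other 3 was -1.18 (SE 0.15, adjusted p 0.0518).

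HES3, a repressor of the Notch effector family, went from 18.3 to 3.64 in shEXOSC3 and from 11.3 to 7.97 in shNS, and from 15.8 to 5.99 and 16.1 to 5.997 without doxycycline. PPP2R2B, a regulatory subunit of the phosphatase PP2A, went from 5.84 to 0.84 against 9.16 to 5.79. Without doxycycline PPP2R2B went from 16.7 to 4.47 and from 14.5 to 6.50. FAM241B went from 8.20 to 2.31 against 5.04 to 4.39, and PAXX, a factor of DNA end joining, from 12.7 to 2.69 against 13.0 to 7.00. Without doxycycline FAM241B went from 5.70 to 2.53 and from 6.82 to 2.405, and PAXX from 10.5 to 3.95 and from 11.5 to 2.85. On the log2 scale PPP2R2B, FAM241B and PAXX fell most in shEXOSC3 with doxycycline and least in shNS with doxycycline. TNNC1, troponin C, went from 12.9 to 5.96 against 14.2 to 16.6. Without doxycycline TNNC1 went from 18.6 to 11.7 and from 17.4 to 9.09, so it rose only in shNS with doxycycline. TAF15, an RNA-binding protein, went from 30.9 to 13.6 against 19.9 to 19.8, and from 34.3 to 12.3 and 29.2 to 10.3 without doxycycline, so shNS with doxycycline again stood apart. SLC25A3P1, a pseudogene, went from 27.8 to 7.33 against 6.27 to 3.74, and from 25.1 to 7.65 and 11.1 to 4.11 without doxycycline. MEF2B, a transcription factor, went from 5.78 to 2.27 against 3.46 to 3.60, and SOHLH2 from 9.60 to 0.57 against 3.92 to 0.56. Without doxycycline MEF2B went from 1.88 to 1.21 and from 1.86 to 2.15. The shEXOSC3 minus shNS difference of SOHLH2 was -1.10 with doxycycline and -1.94 without it.

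**Figure D3:**
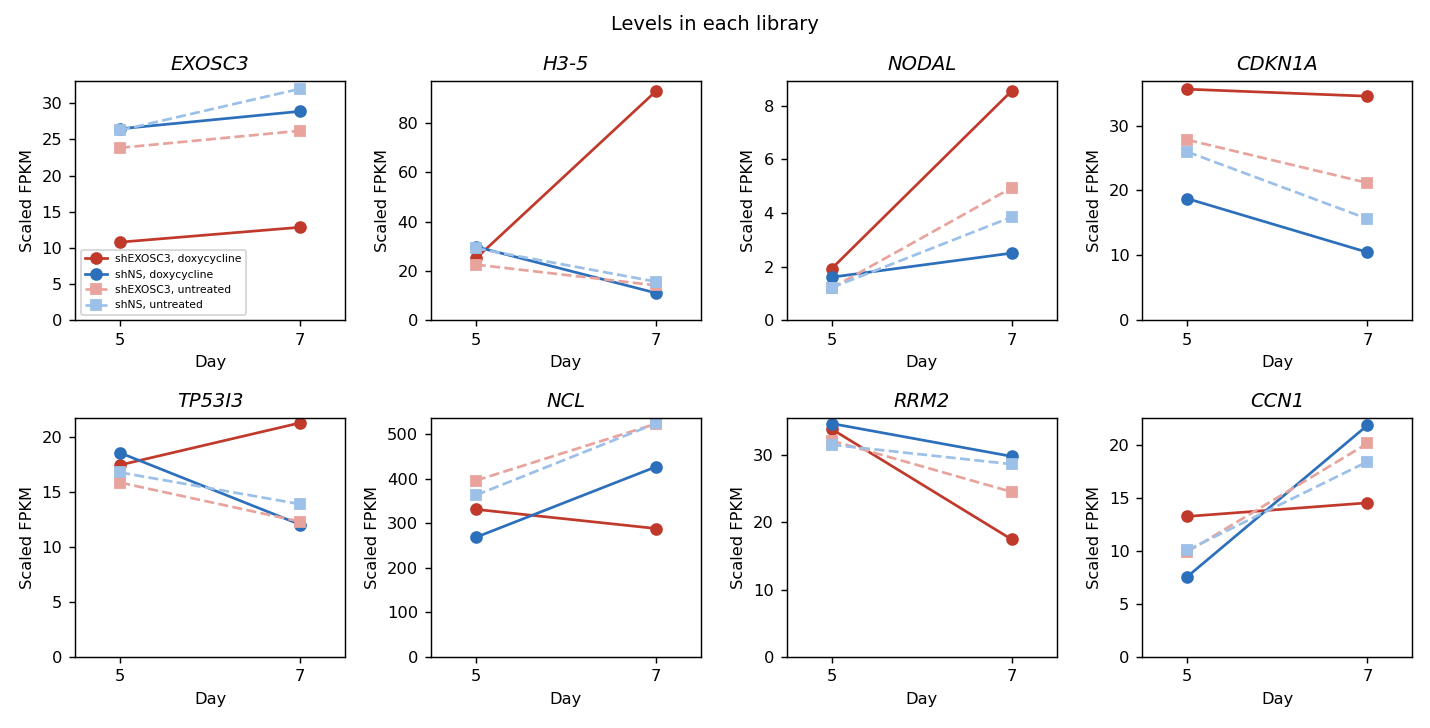
Scaled FPKM (vertical axis) at days 5 and 7 (horizontal axis) of 8 genes in every library, with solid lines for doxycycline and dashed lines for untreated cells. H3-5 is at 93.0 in shEXOSC3 with doxycycline at day 7 and at or under 29.8 in the other 7 libraries, EXOSC3 is lowest in both shEXOSC3 doxycycline libraries, NCL is lower at day 7 only in shEXOSC3 with doxycycline, and CCN1 is higher at day 7 in all 4 cultures, by least there.

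Over all genes the shEXOSC3 minus shNS difference had an SD of 0.32 over all genes with doxycycline and 0.28 without, and a median of 0.00. With doxycycline 50.1% of all genes lay above 0, and without it 50.9%. Lists are described by their counts beside these values and were not tested.

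Targets of p53, the transcription factor that answers DNA damage and ribosomal stress, had the highest median among the lists of at least 7 long genes. The shEXOSC3 minus shNS difference was above 0 in 26 of 28 with doxycycline (median 0.38) and in 20 of 28 without it (median 0.16). Passing the progression rule were 0 of them, where 0.256% of all genes passed in the higher direction and 0.176% in the lower. At these shares a list of this size can hold 0 without differing from all genes. At least 0.5 higher lay 9 of them, where 4.79% of all genes did. In 19 of the 28, the shEXOSC3 doxycycline culture had the highest of the 4 day differences (26.4% of all genes), and in 19 the shNS doxycycline culture had the lowest (25.9% of all genes). The median day difference was 0.38 in shEXOSC3 and -0.03 in shNS. At an unadjusted p under 0.05 in the limma test against the other 3, 9 were higher (4.0% of all genes) and 1 lower (5.09% of all genes), and none (0) passed after adjustment.

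CDKN1A, which encodes the cell cycle inhibitor p21, stood at 35.6 FPKM at day 5 and 34.5 at day 7 in shEXOSC3 with doxycycline, and at 18.7 and 10.5 in shNS. In the untreated lines it went from 27.8 to 21.2 and from 26.0 to 15.6. The level was lower at day 7 in the other 3 cultures and nearly level in shEXOSC3 with doxycycline, and the shNS doxycycline libraries were the lowest on both days. TP53I3, an oxidoreductase induced by p53, went from 17.4 to 21.3 in shEXOSC3 and from 18.5 to 12.01 in shNS, and from 15.8 to 12.3 and 16.7 to 13.9 without doxycycline. TP53I3 was thus higher at day 7 in 1 culture and lower in 3. SESN1, a stress-induced inhibitor of mTORC1, went from 30.7 to 31.6 against 25.4 to 16.3, and from 31.9 to 21.8 and 27.5 to 18.7 without doxycycline.

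RPS27L, a ribosomal protein paralogue under p53 control, rose in all 4 cultures (limma adjusted p 5.2e-07), from 138 to 560 in shEXOSC3 and from 122 to 285 in shNS, and from 125 to 452 and 104 to 412 without doxycycline. MDM2, the ubiquitin ligase that limits p53, rose too (adjusted p 5.57e-07), from 92.5 to 257 and from 69.7 to 140. FAS, a death receptor, rose from 3.23 to 12.5 and from 2.04 to 5.43 (adjusted p 1.1e-06). BAX, a pore-forming death effector, fell in all 4 cultures (adjusted p 4.49e-09), from 138 to 25.9 and from 119 to 18.1. The exceptions in direction were GADD45A, with a difference of -0.34 (24.6 to 45.3 against 11.9 to 28.3), and XPC, a sensor of DNA damage, with -0.22. Over the alternatives tried, the median of the list lay between 0.24 and 0.48.

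**Figure D4:**
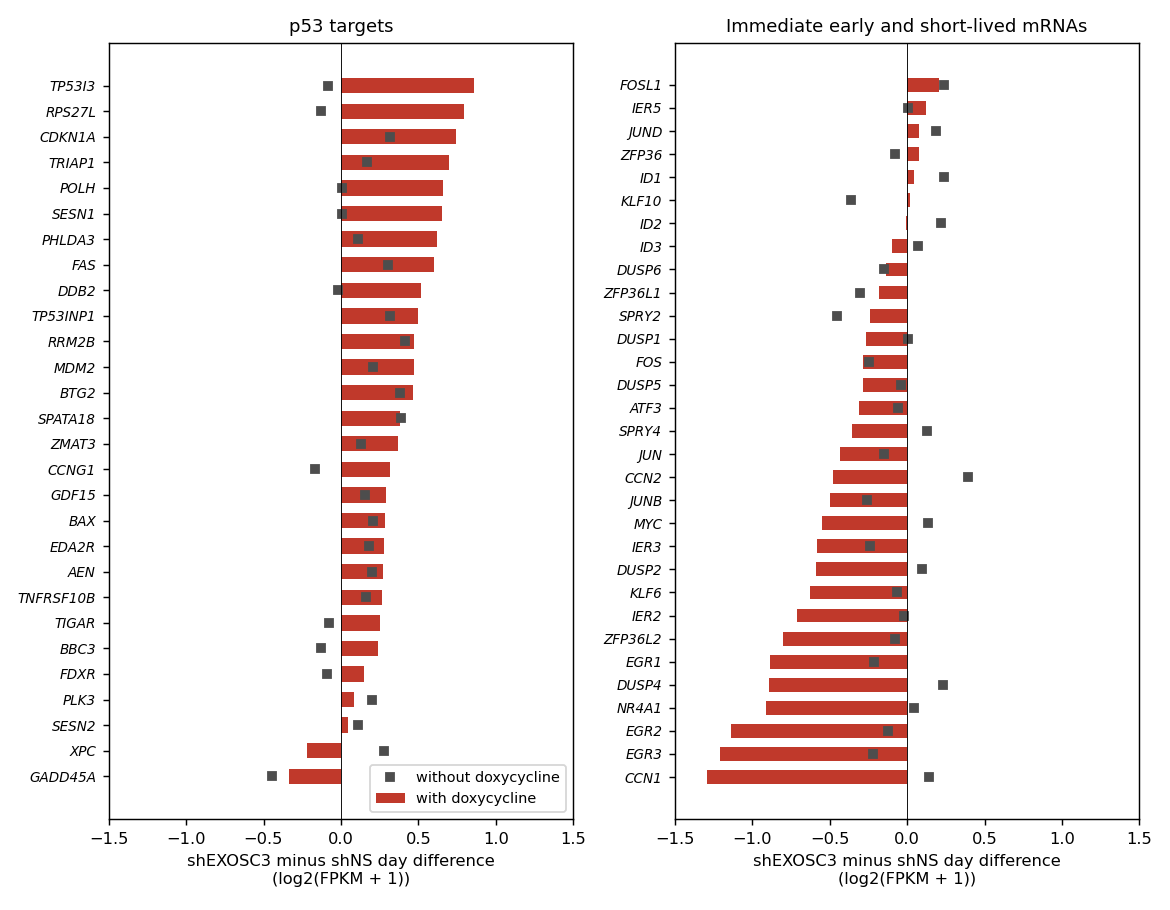
shEXOSC3 minus shNS day difference (log2(FPKM + 1), horizontal axis) of each measured p53 target and each immediate early or short-lived mRNA, with doxycycline (bars) and without it (squares). Of the p53 targets 26 of 28 bars lie above 0, and of the immediate early genes 25 of 31 lie below 0, with the squares nearer to 0 for most genes at the ends.

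Immediate early and other short-lived mRNAs went the other way. Immediate early genes are switched on within minutes of growth factor signals, partly through serum response factor (SRF), which binds a sequence called the CArG box. The promoters of EGR1 and EGR2 are shown because they are the members of the immediate early list that hold this motif, and that of SRF because it encodes the factor; each run is the 250 bases before the RefSeq start of transcription, in GRCh38.p14, on the strand of the gene, with matches to the CArG box (either strand) in capitals. EGR1 lies on the plus strand at chr5:138465229-138465478 with 2 matches, EGR2 on the minus strand at chr10:62816367-62816616 with 1, and SRF, which regulates its own gene, on the plus strand at chr6:43171019-43171268 with 2.
EGR1: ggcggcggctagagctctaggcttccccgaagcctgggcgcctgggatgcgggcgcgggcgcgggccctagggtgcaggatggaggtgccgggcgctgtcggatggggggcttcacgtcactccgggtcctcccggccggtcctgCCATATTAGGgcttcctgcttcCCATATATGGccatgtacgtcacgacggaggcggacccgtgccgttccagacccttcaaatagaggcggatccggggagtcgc
EGR2: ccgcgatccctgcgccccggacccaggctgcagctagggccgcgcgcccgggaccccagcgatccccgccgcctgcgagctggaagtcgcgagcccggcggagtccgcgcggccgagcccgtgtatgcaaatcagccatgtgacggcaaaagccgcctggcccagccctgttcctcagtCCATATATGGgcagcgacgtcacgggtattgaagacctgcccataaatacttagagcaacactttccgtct
SRF: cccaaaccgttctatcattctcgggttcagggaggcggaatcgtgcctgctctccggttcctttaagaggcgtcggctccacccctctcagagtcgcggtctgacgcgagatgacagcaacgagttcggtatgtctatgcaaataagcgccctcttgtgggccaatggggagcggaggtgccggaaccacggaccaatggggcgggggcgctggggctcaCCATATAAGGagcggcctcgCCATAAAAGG
The CArG box was found in 2 of 29 promoters of the immediate early list (6.9%), in 6 of 30 of the SRF and YAP list (20.0%) and in 407 of 35116 promoters in all (1.16%). These matches describe the letters only, and the SRF list was partly chosen for known SRF targets.

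Of 31 measured immediate early or short-lived mRNAs, 25 had a shEXOSC3 minus shNS difference below 0 with doxycycline (median -0.36) and 17 without it (median -0.04), where 49.9% and 49.1% of all genes did. None (0) passed the progression rule, which 0.256% of all genes passed in the higher direction and 0.176% in the lower. At least 0.5 lower lay 13 of the list, where 4.87% of all genes did. After centring by GC content, 9 of the 29 members with a GC value did (median -0.27), beside 512 of 11889 genes. In 18 of 31 the shEXOSC3 doxycycline culture had the lowest of the 4 day differences (28.5% of all genes), and in 16 the shNS doxycycline culture had the highest (23.7%). EGR1 rose with the day in all 4 cultures (limma adjusted p 2.54e-07). It went from 3.19 to 15.5 FPKM in shEXOSC3 and from 3.63 to 32.8 in shNS, and from 4.39 to 19.8 and 3.74 to 20.3 without doxycycline. The shEXOSC3 doxycycline library was the lowest of the day 7 libraries for EGR1 and the shNS doxycycline library the highest.

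EGR2 and EGR3 had the same order at day 7, with 1.00 and 1.91 FPKM in shEXOSC3 and 3.81 and 5.62 in shNS, from 0.08 to 0.21 at day 5 in both lines. CCN1, a matricellular target of SRF and YAP, went from 13.2 to 14.5 in shEXOSC3 and from 7.56 to 21.9 in shNS, and from 9.90 to 20.1 and 10.1 to 18.4 without doxycycline. CCN1 had the lowest difference of the list, at -1.29; its shEXOSC3 library was the highest at day 5 and the lowest at day 7. NR4A1, an orphan nuclear receptor, went from 4.70 to 1.21 against 3.28 to 2.12. MYC rose in all 4 cultures (adjusted p 1.66e-06), from 14.2 to 25.8 and from 12.2 to 33.1. At the other end, FOSL1, a FOS family member, rose from 1.70 to 22.1 and from 0.73 to 11.8 (adjusted p 3.73e-09), with a difference of 0.21.

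The list of SRF and YAP targets, which shares CCN1 and CCN2 with the immediate early list, lay below 0 in 19 of 23 (median -0.25) with doxycycline and in 14 of 23 (median -0.04) without it. In 17 of 23 the shEXOSC3 doxycycline culture had the lowest day difference (28.5% of all genes). MYL9, a myosin light chain, rose in all 4 cultures (adjusted p 1.71e-05). It went from 37.2 to 59.0 FPKM in shEXOSC3, from 16.1 to 54.6 in shNS, and from 14.3 to 47.2 and 13.4 to 52.7 without doxycycline. For MYL9 the shEXOSC3 library stood apart at day 5, where it was highest, while all day 7 libraries lay between 47.2 and 59.0. THBS1, an adhesive glycoprotein, went from 17.6 to 26.2 and from 17.4 to 48.1, and SRF itself from 15.6 to 9.89 and from 13.8 to 12.6. ACTA2, smooth muscle actin, and VIM, an intermediate filament, were at the upper end with differences of 0.26 and 0.23.

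Factors of ribosome assembly lay below 0 in 28 of 35 with doxycycline (median -0.20) and in 25 of 35 without it (median -0.12). In 26 of 35 the shEXOSC3 doxycycline culture had the lowest of the 4 day differences (28.5% of all genes). The largest difference was that of NCL, nucleolin, which opens ribosomal chromatin and binds precursor RNA. NCL stood at 331 FPKM at day 5 and 288 at day 7 in shEXOSC3 with doxycycline, at 268 and 427 in shNS, and at 396 and 524 and 363 and 524 without doxycycline. NCL was higher at day 7 in 3 cultures and lower in shEXOSC3 with doxycycline. NPM1, nucleophosmin, had the same form, with 699 and 579 against 862 and 1027, and with 911 and 1009 and 884 and 961 without doxycycline. NOB1, the nuclease that makes the end of 18S ribosomal RNA, went from 21.2 to 19.2 against 13.1 to 18.6. At the upper end NOP10 and NHP2, both of the H/ACA snoRNA particle, fell with the day in all 4 cultures (adjusted p 2.25e-05 and 1.4e-07) with differences of 0.38 and 0.35.

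Genes of DNA replication in S phase lay below 0 in 26 of 32 with doxycycline (median -0.14) and in 23 of 32 without it (median -0.14), so the medians were alike in the absence of the drug. In 23 of 32 the shEXOSC3 doxycycline culture had the lowest day difference (28.5% of all genes). RRM2, the small subunit of ribonucleotide reductase, went from 33.9 to 17.5 FPKM in shEXOSC3 and from 34.7 to 29.9 in shNS, and from 32.2 to 24.6 and 31.6 to 28.7 without doxycycline. RRM2 fell with the day over the 4 cultures (adjusted p 0.00795) and its day 7 level was lowest in shEXOSC3 with doxycycline. MCM6, a subunit of the replicative helicase, went from 42.4 to 26.9 against 42.3 to 39.5. GINS3 and TYMS were at the other end, with differences of 0.44 and 0.31. The 30 genes of G2 and mitosis had a median of -0.01 and lay on both sides, 14 above and 16 below 0.

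**Figure D5:**
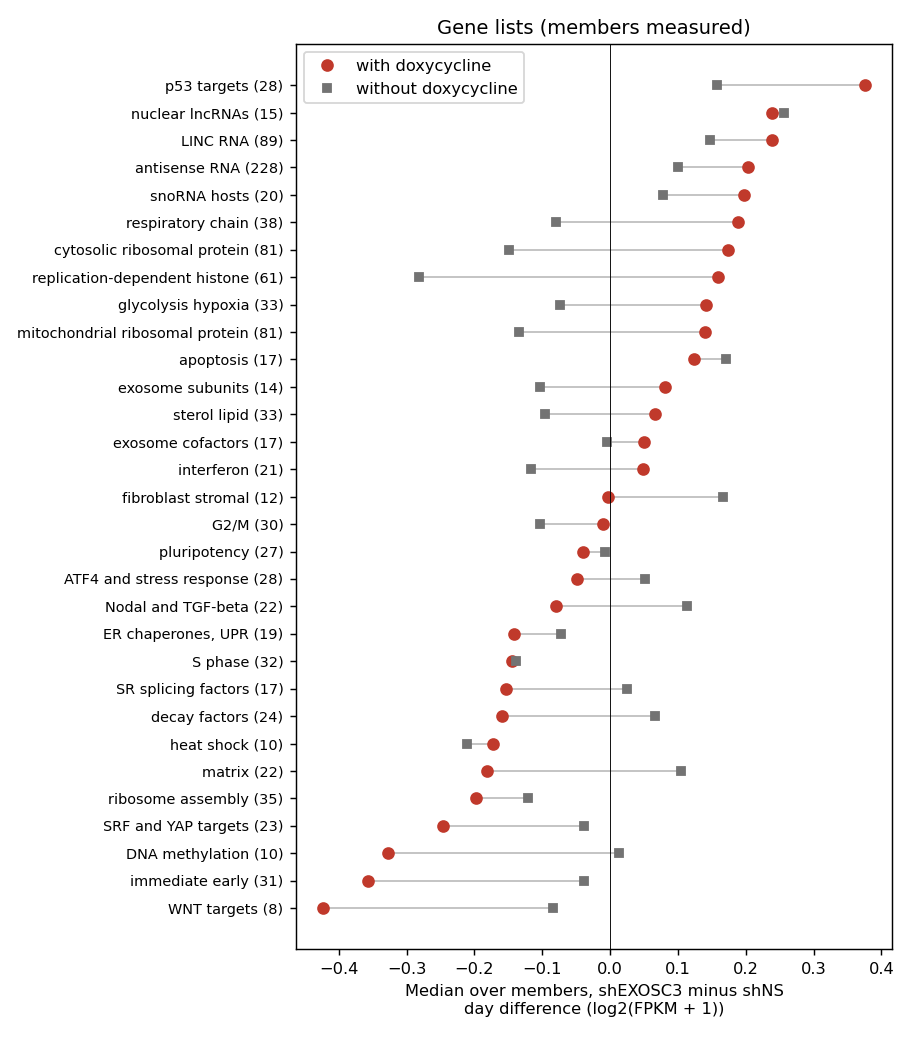
Median shEXOSC3 minus shNS day difference (log2(FPKM + 1), horizontal axis) of lists with at least 7 measured long genes (number in brackets), with doxycycline (circles) and without it (squares). The lists of HOX and retinoid genes, microRNA hosts, LOC genes and ZNF genes are not shown. p53 targets are highest with doxycycline at 0.38 and WNT targets lowest at -0.42, and replication-dependent histones change side, from -0.28 without doxycycline to 0.16 with it.

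Most genes of energy metabolism had a slightly higher day difference in shEXOSC3 than in shNS. Of 38 nuclear genes of the respiratory chain, 34 lay above 0 with doxycycline (median 0.19) and 16 without it (median -0.08); 30 fell with the day by the limma test (38.8% of all genes) and 5 rose (39.1% of all genes). In 21 of 38 the shNS doxycycline culture had the lowest day difference (25.9% of all genes). NDUFC2, of complex I, went from 40.8 to 20.7 FPKM in shEXOSC3 and from 45.8 to 13.6 in shNS. SDHB, of complex II, went from 71.2 to 64.7 and from 87.1 to 55.1. COX5A and SDHC were at the lower end, with differences of -0.29 and -0.24.

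Glycolysis and hypoxia genes lay above 0 in 23 of 33 (median 0.14) with doxycycline and in 11 of 33 (median -0.07) without it. BNIP3, a mitophagy receptor, went from 49.5 to 96.9 against 70.2 to 89.1, and P4HA1, a collagen prolyl hydroxylase, rose in all 4 cultures (adjusted p 2.96e-07), from 48.7 to 172 and from 55.6 to 128. PDK1, which limits pyruvate entry into mitochondria, rose from 40.0 to 87.6 and from 42.5 to 63.4 (adjusted p 6.86e-05). ADM and VEGFA, secreted hypoxia targets, were at the lower end with differences of -0.70 and -0.50. For BNIP3 the day 5 library of shEXOSC3 with doxycycline was the lowest of the 4, and day 7 was between 89.1 and 112 in all libraries.

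Ribosomal protein genes lay on the same side. Of 81 cytosolic ones 57 lay above 0 with doxycycline (median 0.17) and 29 without it (median -0.15), and of 81 mitochondrial ones 61 (median 0.14) and 23 (median -0.13). With the untreated difference subtracted the medians were 0.31 for both. In 39 and 48 of them the shNS doxycycline culture had the lowest day difference, where 25.9% of all genes did. The shEXOSC3 doxycycline culture had the highest in 14 and 19 of the 81, where 26.4% of all genes did. RPL37A, for example, fell (adjusted p 1.64e-05) from 3914 to 2146 FPKM in shEXOSC3 and from 4915 to 2156 in shNS, and MRPL33 fell from 104 to 73.1 and from 130 to 58.4 (adjusted p 2.2e-05). RPL37A was at the same level in both day 7 libraries and higher at day 5 in shNS. Ribosomal protein genes have many pseudogenes, which can take up their reads.

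Genes of pluripotency lay on both sides of 0. Of 27 measured, 11 lay above 0 with doxycycline and 11 without it (medians -0.04 and -0.01, the first between -0.10 and 0.18 over the alternatives). None (0) passed the progression rule, which 0.256% of all genes passed in the higher direction and 0.176% in the lower. POU5F1, the core factor OCT4, stood at 144 FPKM at day 5 and 161 at day 7 in shEXOSC3 and at 155 and 146 in shNS. NANOG went from 18.5 to 23.9 and from 17.9 to 23.3, and to 32.0 and 34.5 at day 7 in the untreated lines. SOX2 went from 164 to 182 against 175 to 247. POU5F1 and NANOG thus stood at close levels in both doxycycline lines at day 7, and SOX2 lower in shEXOSC3, a difference of -0.35 that was -0.30 without doxycycline. ESRG, a stem cell long noncoding RNA driven by an endogenous retrovirus, rose (adjusted p 0.000698) from 41.4 to 117 and from 47.1 to 77.7, and to 88.2 and 81.8 without doxycycline. UTF1 and PODXL were at the lower end, with differences of -0.71 and -0.45, and FGF2 at the upper end beside ESRG, with 0.61.

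Around NODAL, 8 of 22 genes of the Nodal and TGF-beta pathway lay above 0 (median -0.08), against 14 of 22 without doxycycline (median 0.11), and over the alternatives the first median lay between -0.21 and -0.03. GDF3, a related ligand, went from 17.4 to 18.1 against 17.6 to 11.8. PMEPA1, a feedback inhibitor, went from 2.36 to 4.03 against 2.00 to 2.35, and SKIL, another, rose from 49.6 to 111 and from 60.1 to 99.8 (adjusted p 4.56e-05). FOXH1, the DNA-binding partner of the SMAD proteins, fell in all 4 cultures (adjusted p 4.05e-07), from 22.1 to 7.85 and from 14.1 to 5.44. NODAL was therefore the only member of this list past the progression rule.

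WNT targets lay below 0 in 7 of 8 (median -0.42) with doxycycline and in 6 of 8 (median -0.08) without it; with no minimum mean FPKM the doxycycline median was -0.19. LEF1, a transcription factor of the pathway and its target, rose in all 4 cultures (adjusted p 2.85e-06), from 0.77 to 2.90 FPKM in shEXOSC3 and from 0.59 to 5.87 in shNS, and to 3.83 and 5.21 at day 7 without doxycycline. TCF7 had a difference of -0.67, and WNT3, a ligand, one of 0.35. LEF1 stood lowest in shEXOSC3 with doxycycline among the day 7 libraries. DNA methylation enzymes lay below 0 in 8 of 10 (median -0.33) and in 4 of 10 without doxycycline, and the median was -0.20 with a pseudocount of 5 FPKM, with the transcript of highest mean or over genes with 1 transcript. UHRF1, which recruits the maintenance methyltransferase, went from 5.82 to 1.98 against 5.599 to 3.19, and DNMT1, that methyltransferase, from 34.3 to 36.5 against 30.3 to 42.7.

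Markers of other cell types gave no common direction. Few were measured: 3 of 18 for mesendoderm, 4 of 14 for definitive endoderm, 6 of 16 for mesoderm, 5 of 22 for neuroectoderm and 4 of 18 for trophectoderm or amnion, and 12 of 16 for fibroblasts. The fibroblast markers lay above 0 in 6 and below in 6 (median 0.00), and the mesoderm markers in 3 and 3 (median -0.06). The neuroectoderm markers lay above 0 in 3 and below in 2 (median 0.075), and OTX2 and NES are the 2 below. OTX2, a marker of anterior epiblast and neuroectoderm, went from 13.7 to 28.9 FPKM in shEXOSC3 and from 11.4 to 44.3 in shNS. NES, an intermediate filament of neural progenitors, went from 99.98 to 67.3 against 80.5 to 85.6. VIM stood at 499 and 449 in shEXOSC3, 335 and 257 in shNS and between 77.0 and 91.1 in the untreated libraries, so it was higher with doxycycline in both lines on both days. COL1A1 had a difference of -0.84, and ACTC1, a cardiac actin also on the SRF list, one of -0.76.

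Antisense and intergenic LINC RNAs, long noncoding classes that the nuclear exosome degrades, lay mostly above 0. Of 228 measured antisense RNAs 159 did with doxycycline (median 0.20) and 138 without it (median 0.10), and of 89 intergenic LINC RNAs 64 (median 0.24) and 55 (median 0.15). The medians moved with the filter on low values: with no minimum they were 0.03 for antisense and 0.004 for LINC RNAs, and with a minimum mean of 5 FPKM 0.36 and 0.47. In 109 of 228 and 40 of 89 the shEXOSC3 doxycycline culture had the highest day difference, where 26.4% of all genes did. The 50 measured uncharacterized LOC genes lay on both sides with doxycycline, 25 above and 25 below 0 (median -0.005). Without it 29 of them lay above and 21 below (median 0.024). Whether counting used strand is not stated, so reads of antisense RNAs and overlapping genes cannot be told apart. LINC00458, a pluripotency-linked RNA, went from 96.0 to 144 against 114 to 94.9. LINC02595 rose (adjusted p 6.24e-07) from 8.48 to 39.5 and from 8.29 to 26.1. NEAT1 rose from 1.05 to 5.71 and from 0.48 to 2.45 (adjusted p 5.94e-06), with a difference of 0.49 with doxycycline and 0.65 without. Of 15 nuclear long noncoding RNAs, 13 lay above 0 with doxycycline (median 0.24) and 13 without it (median 0.26). MALAT1 had the lowest difference among these 15 with doxycycline, -0.96, and stood at 1.07 without it. DANCR, which fell in all 4 cultures (adjusted p 1.19e-07), went from 146 to 51.3 against 133 to 30.5.

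The host genes of snoRNAs, whose spliced exons are degraded by decay pathways, lay above 0 in 16 of 20 (median 0.20) with doxycycline and in 11 of 20 (median 0.08) without it. SNHG8 fell (adjusted p 0.000116) from 259 to 212 in shEXOSC3 and from 274 to 156 in shNS, and from 282 to 144 and 263 to 128 without doxycycline. SNHG8 thus kept the highest day 7 level in shEXOSC3 with doxycycline. SNHG10 and SNHG7 were at the upper end with differences of 0.55 and 0.54, and SNHG17 and SNHG11 at the lower with -0.78 and -0.70.

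Short RNAs were kept apart because FPKM of entries shorter than a fragment are unstable, and their day differences were far larger than those of long genes. Box H/ACA snoRNAs, which guide pseudouridine formation, had median day differences of 2.44 in shEXOSC3 and 1.02 in shNS with doxycycline, and 2.10 and 0.72 without it. The shEXOSC3 minus shNS difference was above 0 in 77 of 96 with doxycycline (median 0.94) and in 81 of 96 without it (median 1.36), so the median difference was larger where no hairpin was induced. Box C/D snoRNAs had median day differences of 5.69 in shEXOSC3 and 4.75 in shNS with doxycycline, and 5.76 and 3.945 without it. Their shEXOSC3 minus shNS difference was above 0 in 84 of 159 with doxycycline (median 0.15) and in 93 without it (median 0.25). With the untreated difference subtracted the median was -0.43. At day 5, 103 of the 159 were listed at 0 in shEXOSC3 with doxycycline and 89 in shNS. Of 24 Cajal body RNAs 17 lay above 0 with doxycycline and 19 without it. All 6 measured minor and variant spliceosomal snRNAs lay above 0 in both settings (medians 1.81 and 0.63). RNU11, of the minor spliceosome, stood at 195 FPKM at day 5 and 6384 at day 7 in shEXOSC3 and at 313 and 5288 in shNS. The medians of the H/ACA, C/D and spliceosomal classes were lower at day 5 than at day 7 in all 4 cultures, and RMRP and RPPH1, the RNA of RNase P, were higher at day 5 in all 4. The Cajal body RNAs had medians of 0.08 and 0.47 in shEXOSC3 with and without doxycycline and of -0.59 and -0.81 in shNS.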

How the data were processed

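Total RNA of H1 cells was depleted of ribosomal RNA and made into ScriptSeq libraries, per the labels. Reads had been mapped to hg19; the tools named are CASAVA 1.8, TopHat and Cufflinks, per the submitters' processing notes. No source used here gives the annotation or the strand setting. Per the file headers, the authors deposited FPKM per RefSeq transcript in 4 tables, each holding 2 libraries of 1 line and day; depth was read only from the steps between low values. Of 49235 transcripts, 48147 (97.8%) matched a symbol, and 177 with failed, too deep or unlike entries were dropped with their genes. FPKM were summed per symbol, scaled by the median ratio over long genes, and kept at a mean of at least 1 FPKM, which left 12496 long genes and 619 short RNAs (short classes or loci under 300 bp). Differences are of log2(FPKM + 1), a pseudocount of 1. limma 3.58.1 (R 4.3.3) with trend and Benjamini-Hochberg adjustment at 0.05 was run on the 4 day differences: their mean (3 residual degrees of freedom), or shEXOSC3 with doxycycline against the other 3 (2), the lone culture being assumed to vary like the others. A gene the second fit missed is not shown to be unaffected. p-values measure only the spread between these cultures.

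Genes named are EXOSC3, the 12 highest and 12 lowest by shEXOSC3 minus shNS past the progression rule, 5 at each end of the shared difference, and up to 2 at each end of a list, the ranked ones only from 5 FPKM in a doxycycline library; the genes of the limma test and other list members were chosen after their values were seen. A Y-linked gene is not described, and some genes that the rule names are not reported here. Members and lists were chosen with earlier results of these data known. Promoters are from RefSeq. Alternatives were scaling, pseudocount, filter, threshold, transcript choice and subtraction of the untreated difference; centring by GC content (GENCODE transcripts) and leaving out each culture were added after seeing the data.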

Additional observations from a re-analysis of the deposited data

Results flagged for a closer look

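In 6 of the named genes the shEXOSC3 and the shNS culture with doxycycline moved in opposite directions from day 5 to day 7, each by at least 0.5 on the log2 scale. The shEXOSC3 minus shNS differences were 3.21 for H3-5, 2.47 for LOC101930071, 1.72 for GPATCH8, 1.54 for ANKRD34C, -1.66 for TNNT2 and -2.72 for DIAPH3-AS1. With 1 library per group the difference between the 2 lines itself was not tested. Against the other 3 cultures, limma gave adjusted p-values of 0.00464 for H3-5, 0.0397 for TNNT2 and 0.0398 for DIAPH3-AS1, and of 0.0731, 0.844 and 0.808 for LOC101930071, GPATCH8 and ANKRD34C. The first 3 adjusted p-values rose to 0.33 for H3-5, 0.493 for TNNT2 and 0.33 for DIAPH3-AS1 without the untreated shNS culture. The untreated lines differed in the same direction by 2.00 for ANKRD34C and by 1.03 for LOC101930071. For ANKRD34C the shNS levels were near 0, going from 0.44 to 0.01 FPKM with doxycycline and from 0.41 to 0.07 without it.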

How the results depend on the processing

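No paired analysis was possible because each group is 1 library and the labels carry no replicate numbers; the day differences in limma pair the 2 days within a culture. Leaving out each culture in turn, added after seeing the data, gave 4550 to 4713 genes higher and 4532 to 4739 lower with the day, and 0 to 122 higher and 0 to 118 lower for shEXOSC3 with doxycycline against the rest. Scaling (values as deposited, equal totals, equal upper quartiles) left the counts of genes past the size and progression rules within 1.5 times. A pseudocount of 0.1 FPKM raised the progression counts to 75 higher and 80 lower; 5 FPKM gave 5 and 5, with 412 genes higher and 667 lower by day for shEXOSC3, 454 and 647 for shNS. A minimum mean of 5 FPKM left 7 and 10 progression genes. The transcript with the highest mean in place of the sum gave 183 and 300, and left 0 genes in either direction in the limma test against the other 3 (825 at an unadjusted p under 0.05). Genes with 1 transcript, 5894 of them, gave 17 and 13, with day counts of 502, 753, 527 and 740. Subtracting the untreated difference left 43 genes higher and 61 lower by day for shEXOSC3, 46 and 41 for shNS, and 34 lower progression genes. A threshold of 0.5 gave day counts of 3069, 3345, 3037 and 3336 and progression counts of 266 and 291; a threshold of 2 gave 91, 185, 100 and 189, and 3 and 1. Centring by GC content, added after seeing the data, left 509 lower genes in shEXOSC3, 623 in shNS, and 21 and 12 progression genes. limma with a minimum mean of 5 FPKM called 3200 genes lower with the day and 1 lower against the other 3; a pseudocount of 5 FPKM called 2 higher against the other 3.

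When the untreated difference was subtracted, the sign reversed for the nuclear long noncoding RNAs (-0.15), H/ACA snoRNAs (-0.56) and Cajal body RNAs (-0.24), for CCDC169-SOHLH2 (-0.049), ANKRD34C (-0.46) and SOHLH2 (0.84), and for the shEXOSC3 day differences of RPS27 (-0.30), SERF2-C15ORF63 (-0.53), FABP5 (-1.52), PTTG2 (0.32) and H3C7 (0.15). Lists that lay more evenly on both sides of 0 changed sign too with that subtraction. Among them were C/D snoRNAs (-0.43), heat shock chaperones (0.095), endoplasmic reticulum chaperones (0.061), apoptosis genes (-0.031) and pluripotency genes (0.083). SR splicing factors reversed among genes with 1 transcript (0.18). The medians kept their sign under every alternative for p53 targets, immediate early genes (-0.43 to -0.25), SRF and YAP targets (-0.40 to -0.17), ribosome assembly (-0.25 to -0.12) and the respiratory chain (0.13 to 0.27). The causes were not tested, apart from the fewer genes or another threshold where the setting itself gives them. Depth limits low genes most.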
